A study of Arabidopsis thaliana with 27 samples.

Results

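The day course of the catalase mutant was read from whole Arabidopsis rosettes of cat2-2 plants kept in high CO2 and harvested at 8 h, set against cat2-2 plants harvested at 0 h. These are 6 of the 27 arrays in the series, chosen by the genotype and harvest labels, and all 22746 probe sets other than controls were used. Neither group saw a change of CO2: the 8 h plants stayed at 3000 ppm, and the 0 h plants were harvested at the moment when others of the same genotype were moved to 380 ppm. All plants were 3 weeks old and had grown at 3000 ppm CO2 under 16 h of light, at 75 µmol quanta m-2 s-1 and 22 °C, followed by 8 h of darkness at 18 °C. Each array holds 1 biological replicate made from 2 rosettes, and each group has 3. The line cat2-2 is an insertion line that keeps 10 to 15% of the catalase activity of wild type Col-0 (WT), and its own day course was set beside those of WT and of GO5 plants, which carry glycolate oxidase in the chloroplasts. The GO5 and WT groups were harvested at the same 8 h and 0 h, with 3 arrays each. Where 0 h falls in the light period is not given in the sources used here. The comparison covers whatever 8 h of the light and dark cycle, of the circadian clock and of development bring. These cannot be told apart.

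Catalase removes the H2O2 that peroxisomes form when photorespiration oxidises glycolate. High CO2 holds photorespiration down, which is why catalase mutants are commonly grown in it and then resemble the wild type. Leaf transcript levels move through the day for other reasons as well: the circadian clock sets peaks at dawn and dusk, light signalling drives pigment and flavonoid genes, and starch built by day is broken down by night. Cold-regulated (COR) genes are among the known outputs of the clock and are expressed in the daily cycle even without cold.

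Values are log2 signals, so 1 unit is a 2-fold difference, and every difference is 8 h minus 0 h with its SE from the fit (3 arrays in each group). A probe set was called when its limma p-value, adjusted by Benjamini-Hochberg over all probe sets, was under 0.05. The medians of the 6 arrays lay between 5.41 and 5.48, and 21.9% of the values of the series were under 3, near the background, where changes are compressed. In RNA of whole rosettes, fewer cells of a type and less RNA per cell cannot be told apart. Leaf genes were bright: RCA, the activase of Rubisco, averaged 12.94 ± 0.03 at 8 h and 13.32 ± 0.06 at 0 h (SD, n = 3 each). The root hair expansins EXPA7 and EXPA18 stayed between 2.66 and 3.40 on all 6 arrays. PYK10, a beta-glucosidase known from roots, was bright in both groups, at 10.96 ± 0.51 at 8 h and 10.59 ± 0.16 at 0 h, and FMA, a guard cell factor, averaged 5.34 ± 0.17 and 5.09 ± 0.39. None of these 4 root and guard cell markers was called. The 3' minus 5' signal of the GAPDH control was 1.76 ± 0.09 at 8 h and 1.61 ± 0.13 at 0 h, and that of actin 3.95 ± 0.14 and 4.04 ± 0.07 (exact two-sided permutation p = 0.3 and 0.5, where 0.1 is the smallest possible).

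The array numbered 3 had the most probe sets apart from the other 2 arrays in both groups, by a wide margin only at 0 h. At 0 h it lay more than 1 log2 unit beyond both of the others for 425 probe sets, against 216 for array 1 and 26 for array 2, and at 8 h for 128, against 79 and 99. Many of these probe sets were apart in the other genotypes too. Of the 425 probe sets at 0 h, array 3 was apart in the same direction in GO5 for 263 and in WT for 251. Of its 128 at 8 h, it was for 72 in GO5 and 80 in WT. At 0 h array 1 shared 112 of its 216 with GO5 and 0 with WT, and array 2 shared 4 and 0 of its 26. At 8 h array 1 shared 4 and 0 of its 79, and array 2 shared 46 and 2 of its 99. The deviations of the arrays numbered 3 from their group means correlated across probe sets, which are not independent replicates, with r = 0.78 between cat2-2 and GO5 and 0.80 between cat2-2 and WT at 0 h, and with 0.55 and 0.43 at 8 h. What the arrays numbered 3 share beyond the number was not tested, and the labels do not name a batch. Values without them are given for many of the genes they shift, but not for all, and agreement between genotypes is given only with them.

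**Figure D1:**
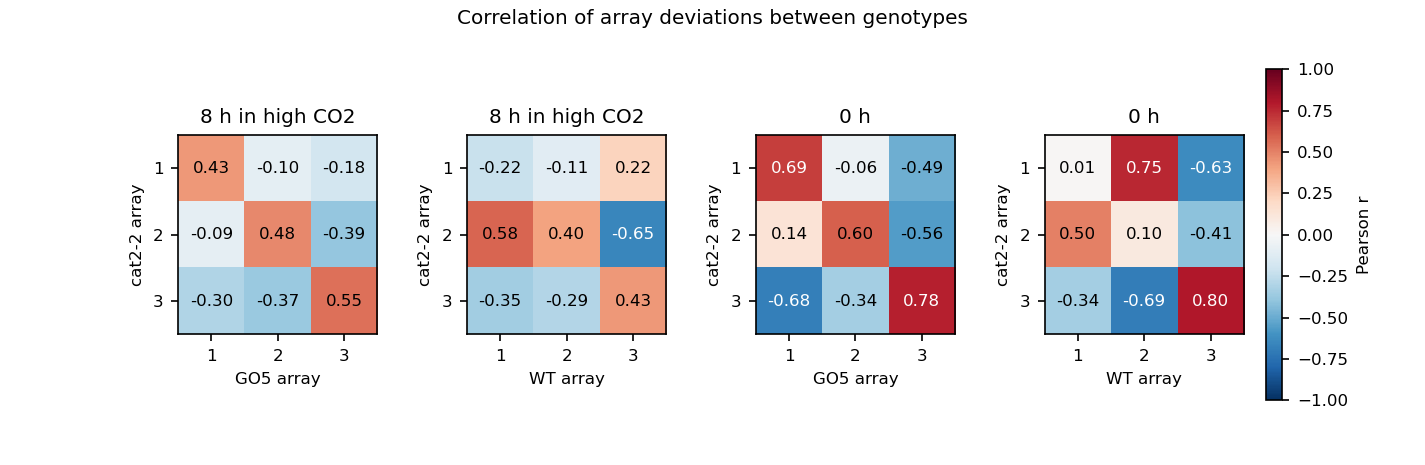
Pearson correlation, across 22746 probe sets, between the deviation of each cat2-2 array (rows) from its group mean and that of each GO5 or WT array (columns) of the same harvest, with 8 h in high CO2 in the left pair of panels and 0 h in the right pair. Arrays numbered 3 correlate with each other in all 4 panels, at 0.43 to 0.80. Arrays 1 and 2 match by number in GO5, at 0.43 to 0.69, but range from -0.22 to 0.40 with the same number in WT, where at 0 h array 1 of cat2-2 goes with array 2 of WT at 0.75 and array 2 with array 1 at 0.50, and at 8 h array 2 with array 1 at 0.58.

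Over the day 2852 of 22746 probe sets, or 12.5%, were called in cat2-2, with 1506 higher at 8 h (6.62%) and 1346 lower (5.92%). Centring the arrays on their medians turned this majority, with 1282 higher and 1521 lower. Of the 2852 calls made without this centring, 537 rose and 535 fell by at least 2-fold, 20 rose and 18 fell by at least 16-fold. The 3 arrays of 8 h and the 3 of 0 h did not overlap for 2829 of the called probe sets, a property shared by 34.1% of all probe sets. Without both cat2-2 arrays numbered 3, which leaves 2 against 2, 1896 probe sets were called, 1108 higher and 788 lower, and 1751 of the 2852 were among them in the same direction. Genes could be named for the 13513 probe sets paired with a single gene. The core clock genes that peak at dawn, the catalases and most photosystem genes are not among these, and 626 of the probe sets that rose and 673 of those that fell had no paired gene.

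Folds here are of signals, and where a group is near background, as AT1G56300 is at 0 h and AT2G27420 and HYH are at 8 h, they may understate the difference. The largest rise in signal among named genes was that of AT1G56300, which encodes a protein with the J-domain of DnaJ chaperones. It gave 9.58, 9.40 and 9.38 at 8 h, against 3.71, 3.21 and 3.06 at 0 h. All 8 h arrays were bright and close to each other and all 0 h arrays near background, and the gene rose 69.7-fold (6.12 ± 0.16, adjusted p = 6.06e-17). AT2G39920, a phosphatase-like gene of the HAD family, had the lowest adjusted p of the comparison, 3.83e-17. Its signal averaged 6.85 ± 0.12 at 8 h and 2.23 ± 0.14 at 0 h (SD, n = 3 each), a 24.5-fold rise (4.61 ± 0.12) with little spread in either group. AT3G62550, of the universal stress protein family, gave 11.35, 11.23 and 10.97 at 8 h, against 6.25, 5.60 and 6.40 at 0 h, and rose 34.3-fold (5.10 ± 0.26, adjusted p = 2.13e-11). AT5G62360, of the pectin methylesterase and invertase inhibitor family, rose 43.1-fold (5.43 ± 0.32), and AT4G16146 44.9-fold (5.49 ± 0.33).

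Among the 12 genes with the largest rise were 3 COR genes. COR15B, which encodes a chloroplast protein that protects membranes in freezing, gave 11.58, 10.67 and 8.78 at 8 h, against 5.13, 4.52 and 4.84 at 0 h. Its 8 h arrays were spread widely, with array 3 the lowest, but all lay far above 0 h. The rise was 45.7-fold (5.51 ± 0.61, adjusted p = 1.61e-06), or 78.8-fold without the arrays numbered 3, and without 8 h array 1 the difference was 4.90. COR27, a clock-associated regulator, gave 8.50, 8.66 and 4.69 at 8 h and 3.09, 2.96 and 2.80 at 0 h. Array 3 at 8 h was far below its partners, in GO5 and WT too. The mean rise was 20.2-fold (4.33 ± 1.06, adjusted p = 0.00756), or 47-fold without the arrays numbered 3. It was not called without 8 h array 1 (3.73, adjusted p = 0.0522) or 8 h array 2 (3.65, adjusted p = 0.0557). Its relative AT4G33980 (COR28) gave 8.28, 8.05 and 5.62 at 8 h and 3.23, 3.21 and 2.93 at 0 h, an 18.3-fold rise (4.19 ± 0.77), or 30.7-fold without them.

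AT4G30650 and AT4G30660, adjacent genes for small membrane proteins of the family that responds to low temperature and salt, had closer arrays. AT4G30660 gave 10.67, 10.48 and 10.35 at 8 h, against 6.49, 6.60 and 6.15 at 0 h, and rose 17-fold (4.09 ± 0.16, adjusted p = 1.76e-13), and AT4G30650 rose 20.5-fold (4.36 ± 0.32). AT1G07050, which encodes a CCT-motif protein as many clock and flowering regulators do, gave 9.08, 8.88 and 6.80 at 8 h and 2.76, 2.67 and 4.06 at 0 h. Array 3 lay nearer to the other group at both times, and the rise of 34.1-fold (5.09 ± 0.68) became 76.9-fold without it. CCL, named for its likeness to the clock-regulated gene CCR, rose 20.3-fold (4.34 ± 0.42).

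**Figure D2:**
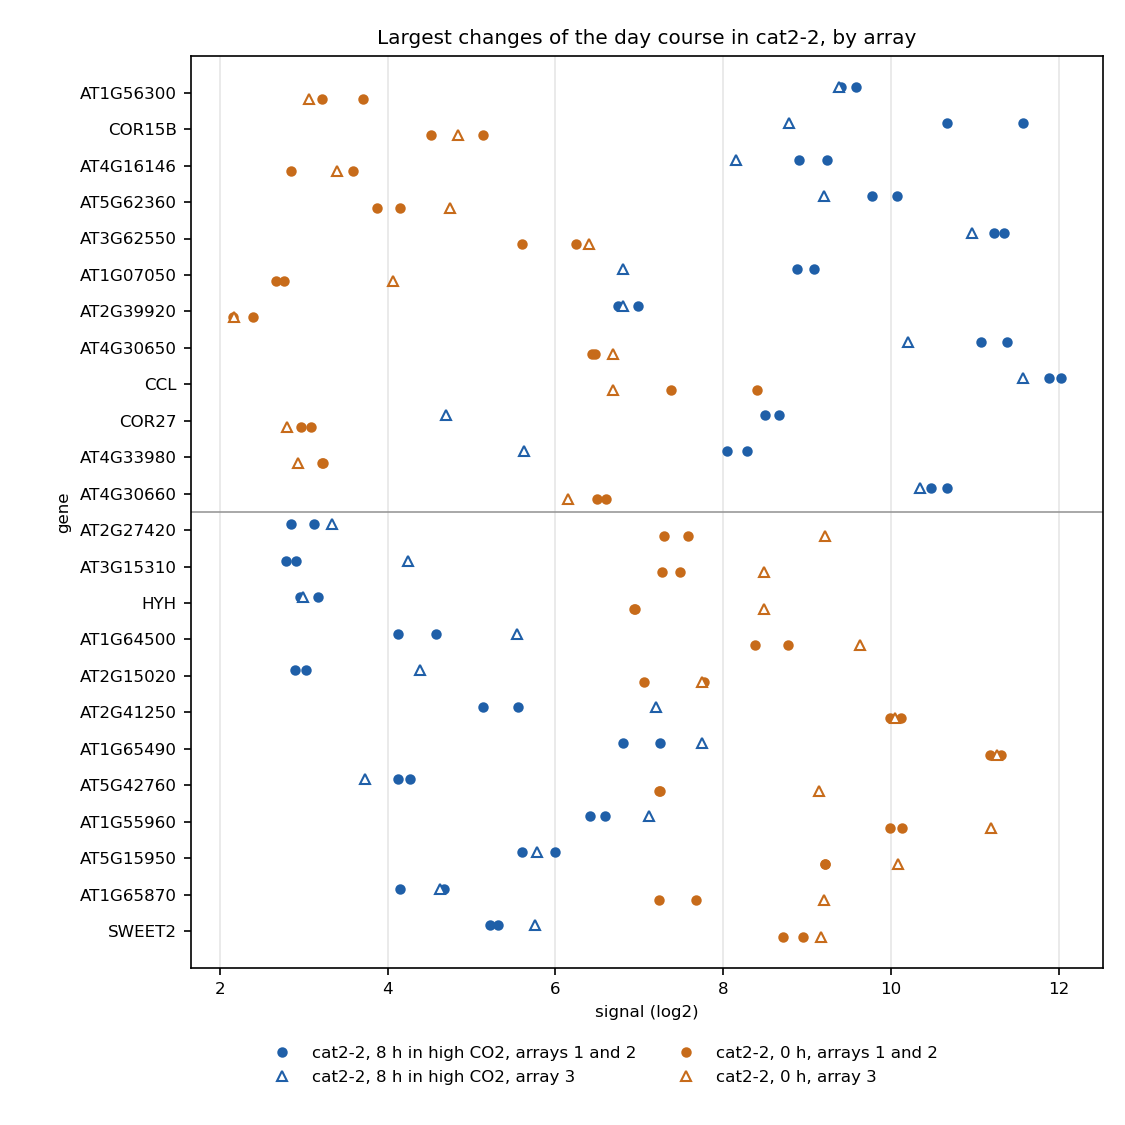
Log2 signal of the 12 genes with the largest rise (upper block) and the 12 with the largest fall (lower block) in each of the 6 cat2-2 arrays, with 8 h in high CO2 in blue above 0 h in orange in each row, and array 3 as an open triangle. The genes were chosen among those whose groups do not overlap. The triangles lie apart most visibly at 8 h in COR27, AT4G33980 and AT1G07050 and at 0 h in HYH, AT5G42760 and AT2G27420.

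Among the genes that fell, AT2G27420, a papain-type cysteine protease, showed the largest difference in signal. It gave 3.12, 2.85 and 3.34 at 8 h, against 7.29, 7.58 and 9.22 at 0 h, so it was near background on every 8 h array, and its signal fell 30.4-fold (-4.92 ± 0.64, adjusted p = 1.18e-05), or by 4.33 on the log2 scale without 0 h array 3. HYH, the bZIP partner of the light factor HY5, gave 2.95, 3.17 and 2.99 at 8 h and 6.95, 6.94 and 8.49 at 0 h, and fell 21.4-fold (-4.42 ± 0.47, adjusted p = 8.74e-07). At 0 h array 3 was well above the other 2, in GO5 and WT too, as the plot of levels by array shows. AT5G15950, an S-adenosylmethionine decarboxylase of polyamine synthesis, gave 5.99, 5.60 and 5.78 at 8 h and 9.21, 9.22 and 10.08 at 0 h, and fell 13.1-fold (-3.71 ± 0.23, adjusted p = 3.13e-10).

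SWEET2, a sugar carrier of the vacuole membrane, gave 5.22, 5.32 and 5.76 at 8 h, against 8.71, 8.95 and 9.17 at 0 h. It fell 11.4-fold (-3.51 ± 0.32, adjusted p = 1.04e-07). It was the 1 called gene of 14 measured SWEET genes, near the 12.5% called over all probe sets. AT1G65490 gave 7.25, 6.81 and 7.75 at 8 h and 11.31, 11.18 and 11.26 at 0 h, and fell by 3.98 ± 0.36 on the log2 scale. The remaining 7 of the 12 were AT3G15310, which the reference lists as a pseudogene, AT1G64500 of the glutaredoxin family, AT2G15020, AT2G41250 of the HAD family, AT5G42760, AT1G55960 with a lipid-binding START domain, and the dirigent-type gene AT1G65870. Their falls lay between 11.8-fold and 21.6-fold. Without the arrays numbered 3 the fall of AT2G41250 was 26.1-fold and that of AT5G42760 8.3-fold, against 17-fold and 14.3-fold with them. All 24 genes of the 2 blocks were still called without these arrays.

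Few clock genes have a named probe set. GI, the GIGANTEA gene of the evening loop and of flowering, gave 8.63, 8.68 and 8.14 at 8 h, against 4.74, 4.53 and 5.59 at 0 h. It rose 11.5-fold (3.53 ± 0.38, adjusted p = 1.03e-06), with array 3 nearer to the other group at both times. AT1G69570 (CDF5), a repressor of flowering whose protein GI helps to remove, gave 4.79, 4.99 and 5.49 at 8 h and 6.92, 7.34 and 6.96 at 0 h, and fell 3.96-fold (-1.99 ± 0.23, adjusted p = 2.27e-06). AT5G52660 (RVE6), a MYB factor of the morning, differed by -0.30 ± 0.16 and was not called (adjusted p = 0.279).

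Counts of called list members are read against the shares of all probe sets, 12.5% called, 6.62% higher and 5.92% lower. Of the 3 measured genes of starch breakdown, 2 rose. DPE1, which rearranges the short glucans released from starch, gave 8.99, 8.87 and 8.58 at 8 h, against 5.50, 5.50 and 6.82 at 0 h, and rose 7.34-fold (2.88 ± 0.39, adjusted p = 1.78e-05). PWD, the phosphoglucan water dikinase AT5G26570 that opens the granule surface, gave 10.25, 10.18 and 9.44 at 8 h and 6.88, 6.87 and 8.48 at 0 h. It rose 5.85-fold (2.55 ± 0.48, adjusted p = 0.000785), or 10.2-fold without the arrays numbered 3, which at both times lay nearer to the other group. The related AT4G24450 differed by 1.06 ± 0.40 (adjusted p = 0.093), and by 1.59 without those arrays (adjusted p = 0.0359). None of 3 genes of starch synthesis was called, with differences from -0.03 to 0.31. None of 6 genes that rise when sugar is short was called either, and all 6 were slightly above 0, from 0.03 to 0.46.

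Of 6 measured genes of chlorophyll synthesis 1 was called, near the 12.5% of all probe sets. PORB, the light-dependent protochlorophyllide reductase of green tissue, gave 11.44, 11.34 and 11.76 at 8 h, against 7.79, 8.08 and 9.43 at 0 h, and rose 8.43-fold (3.08 ± 0.50, adjusted p = 0.000185). The other 5 lay between -0.27 and 0.25. In light harvesting LHCB4.3, a minor antenna protein, gave 6.60, 6.33 and 6.72 at 8 h and 8.25, 8.40 and 8.83 at 0 h and fell 3.84-fold (-1.94 ± 0.38, adjusted p = 0.00101), while its abundant relatives LHCB4.1 and LHCB4.2 differed by 0.14 ± 0.12 and -0.10 ± 0.34 and were not called. None of 5 measured nuclear genes of the photosystems and ATP synthase was called, and their differences stayed within -0.12 and 0.14.

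Genes of the Calvin-Benson cycle and of photorespiration had differences of less than 1 log2 unit. SBPASE, the bisphosphatase that regenerates the CO2 acceptor, averaged 11.08 ± 0.11 at 8 h and 11.90 ± 0.16 at 0 h (SD, n = 3 each), without overlap, and fell 1.77-fold (-0.82 ± 0.17, adjusted p = 0.00194), the 1 called gene of 3. Of 8 photorespiratory genes 2 were called, both lower. HPR, the peroxisomal hydroxypyruvate reductase, gave 11.77, 11.69 and 11.70 at 8 h and 12.32, 12.35 and 12.36 at 0 h (-0.62 ± 0.18, adjusted p = 0.022), and AT1G80380, glycerate kinase of the last step, differed by -0.32 ± 0.10 (adjusted p = 0.0373). Neither was called without the arrays numbered 3 (adjusted p = 0.129 and 0.202). HPR had close arrays in each group, but it was not called when any 1 cat2-2 array was left out, with a difference of -0.65 to -0.61. The count of called photorespiratory genes was 1 under quantile normalization and 4 under median centring of the arrays, all lower, and 0 without any 1 of 4 of the 6 cat2-2 arrays, namely array 2 or 3 of either group. That of the Calvin-Benson list was 3 of 3 under median centring, with only the 6 arrays and without the 3 WT ambient arrays, and 2 under trend and robust variances, with dim probe sets left out and with the replicate block, all lower.

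Of 6 antioxidant enzymes 3 were called, all lower at 8 h, against 5.92% of all probe sets, and the count was 1 without 0 h array 2 and 2 under quantile normalization. GR1, the cytosolic glutathione reductase, gave 7.81, 7.82 and 8.36 at 8 h, against 9.79, 9.72 and 9.96 at 0 h, and fell 3.55-fold (-1.83 ± 0.24, adjusted p = 1.51e-05). GR, the glutathione reductase of the organelles, gave 9.28, 9.10 and 9.48 at 8 h and 9.95, 10.04 and 9.83 at 0 h (-0.65 ± 0.18, adjusted p = 0.0181). SAPX, an ascorbate peroxidase of the stroma, averaged 8.47 ± 0.28 at 8 h and 8.96 ± 0.08 at 0 h (SD, n = 3 each), without overlap (-0.49 ± 0.14, adjusted p = 0.0262). The call of GR1 held whichever cat2-2 array was left out, while those of GR and SAPX did not, and without the arrays numbered 3 SAPX differed by -0.31 (adjusted p = 0.326). The thylakoid peroxidase TAPX differed by -0.04 ± 0.17. GR1 also fell in GO5 (-2.10) and in WT (-1.96).

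Flavonoid genes all lay below 0, from -2.76 to -0.45, and 3 of 7 were called, against 5.92% of all probe sets called lower. CHIL, a helper of chalcone isomerisation, gave 4.48, 4.52 and 5.18 at 8 h, against 6.61, 7.10 and 8.73 at 0 h, and fell 6.76-fold (-2.76 ± 0.51, adjusted p = 0.00068), or by 2.13 on the log2 scale without 0 h array 3. DFR, which commits flavonoids to anthocyanin, gave 3.22, 3.02 and 4.06 at 8 h and 4.78, 5.51 and 4.51 at 0 h and fell 2.84-fold (-1.50 ± 0.35, adjusted p = 0.00542). UGT78D2, which glucosylates flavonols and anthocyanins, gave 6.39, 6.52 and 6.51 at 8 h and 7.80, 7.97 and 9.74 at 0 h. Its fall of 4.09-fold (-2.03 ± 0.47, adjusted p = 0.0048) leaned on array 3 at 0 h, and without the arrays numbered 3 the difference was -1.43 with an adjusted p of 0.0879.

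Of the 5 measured genes of the list for cold and abscisic acid 4 rose. Beside COR15B, its neighbour COR15A gave 11.29, 9.97 and 8.39 at 8 h, against 6.67, 6.47 and 6.12 at 0 h, and rose 11-fold (3.46 ± 0.61, adjusted p = 0.000388), or 16.6-fold without the arrays numbered 3. Its 8 h arrays spread as those of COR15B did, and without 8 h array 1 the difference was 2.76. The dehydrin LTI30 gave 6.98, 6.15 and 5.83 at 8 h and 3.82, 3.84 and 3.47 at 0 h and rose 6.10-fold (2.61 ± 0.27, adjusted p = 5.25e-07), and the dehydrin COR47 rose 2.80-fold (1.48 ± 0.31). The zinc finger repressor STZ, which also responds to wounding and oxidants, had overlapping groups, 4.33, 5.99 and 4.69 at 8 h and 6.37, 7.49 and 5.22 at 0 h, and was not called (-1.36 ± 0.68, adjusted p = 0.235).

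**Figure D3:**
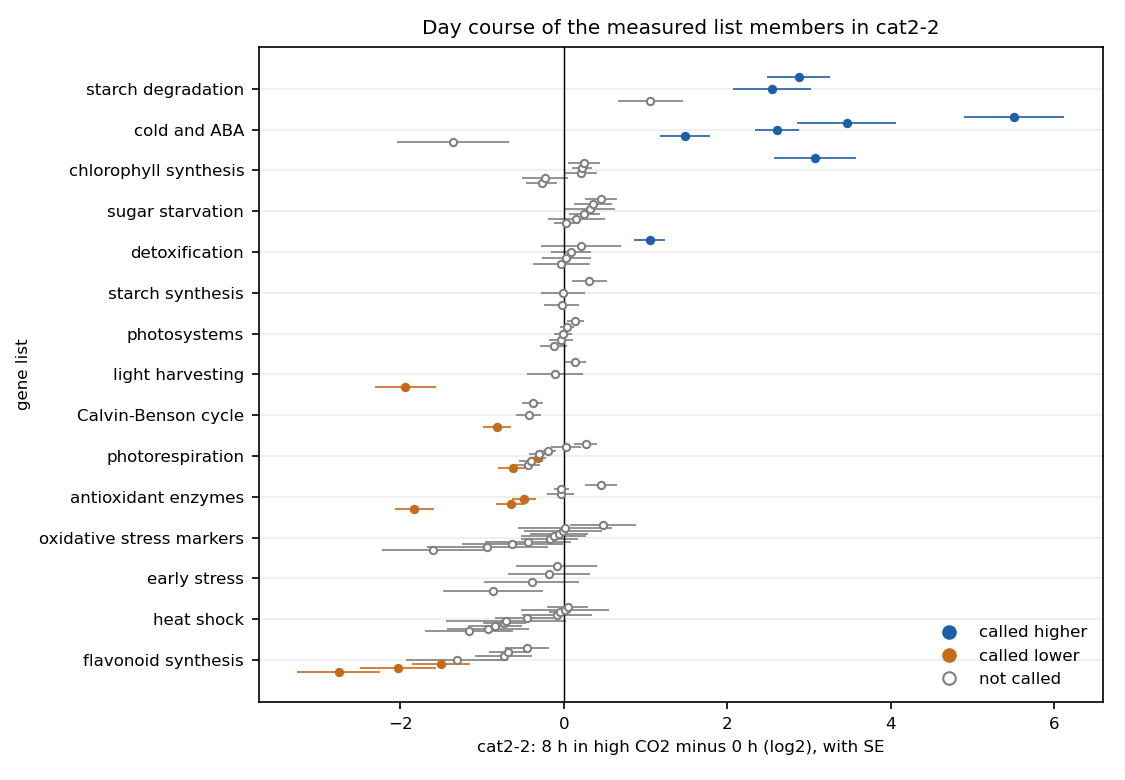
Difference of each measured member of 15 gene lists in cat2-2, 8 h in high CO2 minus 0 h, on the log2 scale with its SE, with called members filled. Called members on the right belong to starch breakdown, cold and abscisic acid, chlorophyll synthesis and detoxification, those on the left mostly to flavonoid, antioxidant and photosynthesis lists, and no member of the oxidative stress, early stress and heat shock lists is called.

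Of 10 markers of oxidative stress none was called, a count near the 12.5% of all probe sets, with differences from -1.60 to 0.48 and a median of -0.15, where all probe sets had a median of 0.01. Of 10 heat shock genes none was called (median -0.58), and of 4 early stress genes, which respond quickly to many stimuli, none (median -0.29), counts that are likewise near that share. With only the 6 arrays 1 oxidative stress marker was called, and 1 heat shock gene with the replicate block or without 0 h array 1, all lower. AT1G19020, a small gene induced by many oxidants, gave 4.38, 5.88 and 5.61 at 8 h and 7.45, 7.14 and 6.08 at 0 h (-1.60 ± 0.63, adjusted p = 0.109), with no overlap but a wide spread in both groups. AT2G04050, a MATE-type carrier, was at background on all 6 arrays, from 2.73 to 3.04. Of 5 detoxification genes UGT73B1, a glucosyltransferase, rose 2.07-fold (1.05 ± 0.19, adjusted p = 0.000402), and the other 4 lay between -0.03 and 0.21. In the jasmonate list OPCL1, a ligase of jasmonate synthesis, rose 1.66-fold (0.73 ± 0.23, adjusted p = 0.0346), a call lost when any 1 of 5 of the 6 arrays was left out, and the defensin PDF1.2 was not called (-2.58 ± 1.25), with 4.78, 3.95 and 8.56 at 8 h and 7.75, 7.93 and 9.35 at 0 h. In the list for auxin and expansion ARL, a regulator of cell expansion, fell 2.90-fold (-1.54 ± 0.44, adjusted p = 0.0226) and was not called without the arrays numbered 3 (adjusted p = 0.0893).

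Gene families of cell walls and sugars, picked by symbol after their values were seen, add detail and no test of the family. The counts below stand beside 6.62% of all probe sets called higher and 5.92% called lower. Of 18 expansins, a further wall family, 2 fell and none rose, with 9 differences above 0, 9 below and a median of 0.03. Of 10 xyloglucan hydrolases (XTH), which loosen or rebuild walls, 5 fell and none rose. XTH19 led with 3.47, 3.62 and 4.34 at 8 h, against 6.56, 7.09 and 6.87 at 0 h, a fall of 8.17-fold (-3.03 ± 0.34, adjusted p = 1.91e-06), followed by XTH18 (-1.56, or -2.21 without the arrays numbered 3), XTH32 (-1.49), EXGT-A3 and XTH33 (-0.95). Of 22 TBL genes, which acetylate wall polymers, 6 fell, led by TBL26 (-2.23 ± 0.38), but without the arrays numbered 3 the count was 1 and the difference of TBL26 -1.63. Of 20 measured beta-glucosidases 4 rose and 2 fell, with BGLU44 at 11.13, 11.33 and 11.07 at 8 h and 8.44, 8.05 and 8.52 at 0 h (2.84 ± 0.24, adjusted p = 2.18e-08). Of 7 tubulins TUB5, TUA6 and TUB6 rose by 1.32, 0.54 and 0.48, and TUA1 fell by 1.12 on the log2 scale. Of 69 plastid-encoded probe sets 4 fell, among them rbcL (-0.51), and none rose. That is near the 5.92% of all probe sets called lower, and the count was 7 under median centring, 2 without 8 h array 3 and 1 without both arrays numbered 3.

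Other called genes, also chosen after their values were seen, came from several processes. Fes1B, an exchange factor for HSP70 chaperones, gave 7.96, 7.76 and 8.08 at 8 h, against 4.72, 4.99 and 3.72 at 0 h, and rose 11-fold (3.46 ± 0.32, adjusted p = 1.43e-07). PDC2, a pyruvate decarboxylase, rose 6.87-fold (2.78 ± 0.52), or by 3.59 on the log2 scale without the arrays numbered 3. AFR, an F-box protein of phytochrome A signalling, gave 5.26, 5.46 and 5.56 at 8 h and 8.14, 8.19 and 9.13 at 0 h and fell 8.32-fold (-3.06 ± 0.36, adjusted p = 2.91e-06). TRY, an inhibitor of trichome formation, fell 6.10-fold (-2.61 ± 0.40), JMT, which methylates jasmonate, 4.29-fold (-2.10 ± 0.33), and CYTC-2, a cytochrome c, 4.50-fold (-2.17 ± 0.31). The largest differences of all belonged to probe sets without a paired gene.

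Measured neighbours in the genome were both called in 119 of 5814 pairs, 55 both higher, 30 both lower and 34 in opposite directions. At 4-fold or more in 1 direction only 3 pairs were left: COR15B with COR15A, AT4G30650 with AT4G30660, and AT5G62360 with AT5G62350, which rose by 5.43 and 2.06 on the log2 scale. Probe sets of neighbouring, similar genes can share signal, which was not tested here. The 5 nuclear chromosomes had 5.36 to 6.85% of their named probe sets higher and 4.09 to 5.35% lower.

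The day course of cat2-2 was then set beside those of GO5 and WT, which share no array with it. The fit over all arrays called 3155 in GO5 (13.9%) and 3042 in WT (13.4%). With only the arrays of the groups compared, the counts were 3211 in cat2-2, 4030 in GO5 and 2449 in WT. Of the 2852 probe sets called in cat2-2, 2055 were called in the same direction in GO5 (72.1% of the calls of cat2-2 and 65.1% of those of GO5) and 2148 in WT (75.3% and 70.6%). All 3 genotypes shared 1889, 982 higher and 907 lower. The signs were the same in GO5 for 98.7% and in WT for 99.3% of the calls. Across all probe sets, which are not independent, the differences of cat2-2 correlated with r = 0.846 (rho 0.661) with those of GO5 and 0.897 (rho 0.726) with those of WT, and the arrays numbered 3, which deviate together, are part of all 3. The single probe set called in opposite directions in cat2-2 and GO5 was that of AT4G30320, with 0.31 ± 0.10 in cat2-2 and -0.33 ± 0.10 in GO5, at signals between 2.67 and 3.31, near background.

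The 24 genes with the largest changes, 12 higher and 12 lower, were all called in the same direction in GO5 and in WT. The differences between day courses ran from -0.46 to 0.70 for cat2-2 minus GO5 and from -0.51 to 0.50 for cat2-2 minus WT. AT1G56300 rose by 6.12 in cat2-2, 6.21 in GO5 and 6.41 in WT, and GI by 3.53, 3.49 and 3.70. HYH differed by -4.42 in cat2-2, -4.32 in GO5 and -4.09 in WT, and PORB by 3.08, 2.97 and 3.07. For GI the 95% interval of cat2-2 minus WT was -1.29 to 0.94, and for HYH -1.71 to 1.04. True differences anywhere inside these intervals remain compatible with the values.

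**Figure D4:**
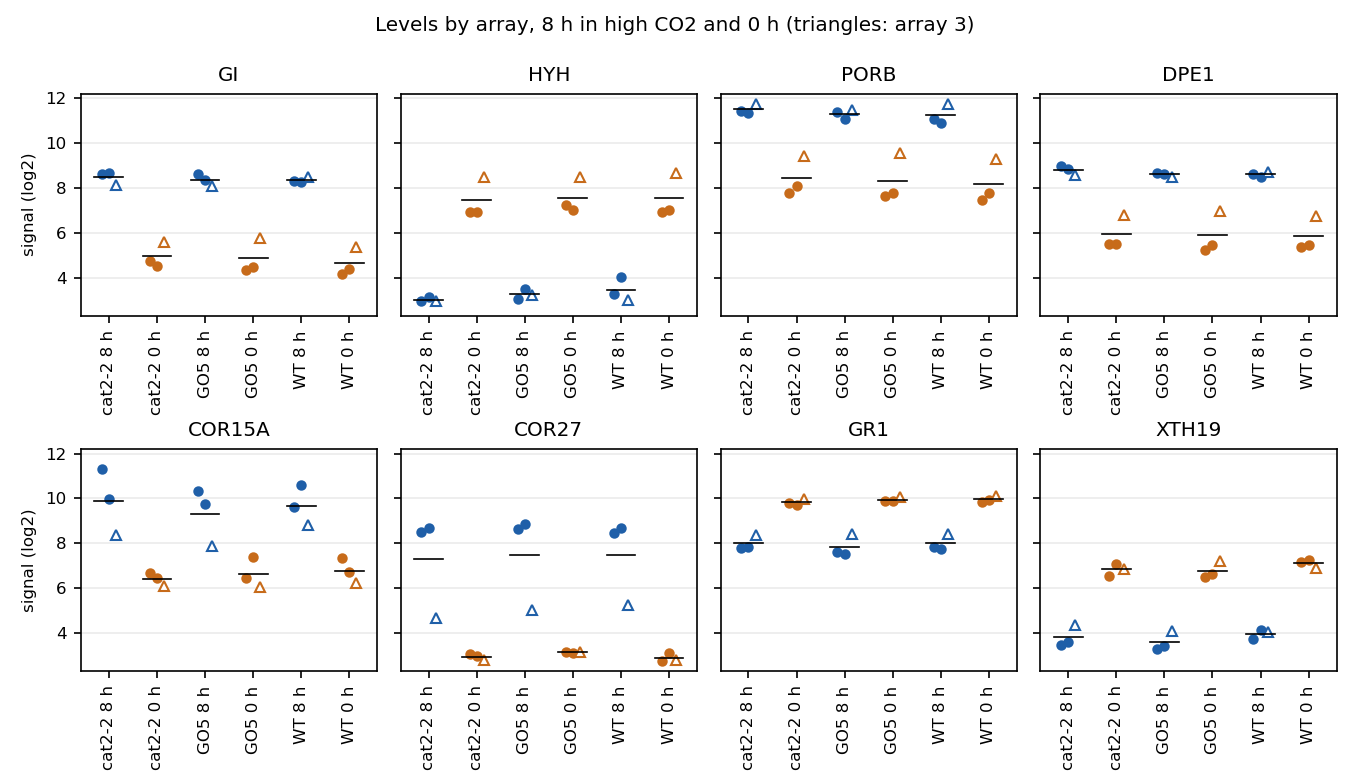
Log2 signal of 8 genes in every array of cat2-2, GO5 and WT, with 8 h in high CO2 (blue) left of 0 h (orange) within each genotype, bars at the group means (n = 3) and array 3 as an open triangle. Array 3 is shifted the same way in all 3 genotypes, upward at 0 h in GI, HYH, PORB and DPE1 and downward at 8 h in COR15A and COR27.

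**Figure D5:**
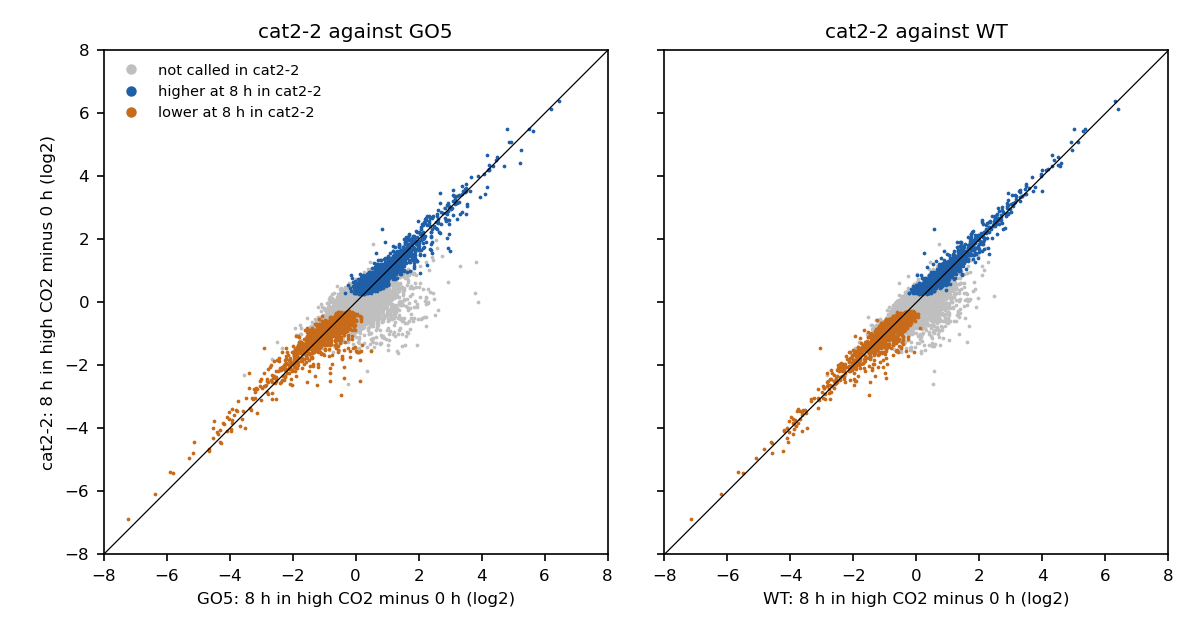
Difference between 8 h in high CO2 and 0 h for each of 22746 probe sets on the log2 scale, cat2-2 on the vertical axis against GO5 (left) and WT (right) on the horizontal axis, with calls in cat2-2 coloured and the line of equal change in black. Points follow the line at both ends, with a cloud of uncalled probe sets below it, higher at 8 h in GO5 or WT than in cat2-2.

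The differences between day courses were then tested themselves. With limma 0 probe sets (0.0%) were called in cat2-2 minus GO5 and 0 (0.0%) in cat2-2 minus WT. At an unadjusted p under 0.05 there were 702 (3.09%) against GO5 and 387 (1.70%) against WT. In this main fit both shares are under the 0.05 that such a threshold gives where nothing differs. With only the arrays of the groups compared there were 1635 against GO5 and 608 against WT, and still 0 called in either. Of the 22746 probe sets, the 1635 are over a share of 0.05 and the 608 under it. The low share against GO5 thus depends on the fit. The test had limited reach: the median 95% interval of cat2-2 minus WT extended 0.44 to each side. Of 100 planted differences of 1 log2 unit in simulated data 53 were recovered in that comparison, and of 100 of 2 units 87. The simulated data lacked the shared shifts of same-numbered arrays and the unequal spreads of the groups, so recovery in the real data may differ. A fit with the replicate number within each harvest as a block was added after seeing the data. The numbers match cat2-2 to GO5 throughout, but to WT consistently only for array 3. In this fit both counts of called probe sets stayed at 0, with 1178 against GO5 and 580 against WT at an unadjusted p under 0.05. Here too the count against GO5 is over a share of 0.05, narrowly, and that against WT under it.

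Some stress genes, named after their values were seen, had wide gaps between cat2-2 and GO5, none of them called. Of the 10 oxidative stress markers, a list chosen with earlier results of these data known, 6 had an unadjusted limma p under 0.05 in cat2-2 minus GO5. In cat2-2 minus WT 0 had, where the shares of all probe sets were 3.09% against GO5 and 1.7% against WT. The other stress lists did not share this: against GO5 it was 0 of 10 heat shock, 0 of 5 detoxification and 1 of 4 early stress genes. AT2G04050, at background in cat2-2, differed by 0.02 in cat2-2, 3.87 in GO5 and -0.10 in WT (cat2-2 minus GO5 -3.86 ± 0.82, unadjusted p = 0.000112, adjusted p = 1.0). Its GO5 arrays at 8 h ran from 4.56 to 8.94, and those at 0 h from 2.92 to 2.93. Without GO5 8 h array 2 the difference passed the test (-4.98, adjusted p = 3.32e-05), as did those of AT2G18190 (-2.70, adjusted p = 0.0221), an AAA-type ATPase, and of 2 probe sets without a paired gene, the 4 calls found when a single array was left out. AT1G19020 differed by -1.60 in cat2-2, 1.35 in GO5 and 0.14 in WT, STZ by -1.36, 1.04 and 0.73, and WRKY53, a senescence and defence factor, by -0.87, 1.37 and 0.71. EXO, a gene of brassinosteroid-driven growth, fell in cat2-2 (-1.36) and in WT (-1.14) and was not called in GO5 (0.22). For STZ the 95% interval of cat2-2 minus WT was -4.10 to -0.09, with an unadjusted p of 0.0417, and none of these differences between day courses passed after adjustment.

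Levels in cat2-2 plants moved to 380 ppm for the same 8 h stand beside the day course as values, since both comparisons use the same 8 h high CO2 arrays. XTH19 averaged 7.27 ± 0.23 after 8 h at 380 ppm, 3.81 ± 0.47 after 8 h in high CO2 and 6.84 ± 0.27 at 0 h (SD, n = 3 each). HYH averaged 5.37 ± 0.53, 3.04 ± 0.12 and 7.46 ± 0.89 in the same order, GR1 9.16 ± 0.10, 8.00 ± 0.31 and 9.83 ± 0.13, and UGT78D2 8.04 ± 0.13, 6.47 ± 0.07 and 8.51 ± 1.08. These 4 genes, named after their values were seen, had their lowest mean at 8 h in high CO2. GI averaged 8.27 ± 0.19, 8.48 ± 0.30 and 4.95 ± 0.56, and of the 24 genes with the largest day course 2, HYH and AT5G15950, were called between 380 ppm and high CO2 at 8 h, both higher at 380 ppm, where 11.3% of all probe sets were called and 5.16% higher.

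As examples, 2 probe sets lay apart between cat2-2 and WT at both harvests. No test between genotypes is given with them, and the number of such probe sets is not given here. AT3G55920, a cyclophilin-type gene, averaged 7.22 ± 0.06 in cat2-2 and 3.03 ± 0.12 in WT at 8 h, and 6.86 ± 0.05 and 3.16 ± 0.12 at 0 h, and GO5 lay with cat2-2, at 7.17 ± 0.09 and 6.92 ± 0.03. A probe set without a paired gene was lower in cat2-2, at 6.02 ± 0.19 against 9.08 ± 0.76 in WT at 8 h and 7.47 ± 0.60 against 12.15 ± 0.17 at 0 h. It fell over the day in cat2-2 (-1.46 ± 0.43, adjusted p = 0.026), in GO5 (-2.89) and in WT (-3.07).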

How the data were processed

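RNA from 2 pooled rosettes per sample was hybridised to ATH1-type arrays. For each array the authors deposited a table of log2 signal by probe set. RMA, GCRMA, affy and R 2.15.0 are named in the submitters' processing notes; whether RMA or GCRMA gave these values is unknown. Single-gene names came from the platform annotation, updated through the TAIR10.1 gene table (13436 of 13513 matched a locus); 503 probe sets name several genes and 8730 none. Sequences and positions were not used here.

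One model of 9 group means over the 27 arrays was fitted (lmFit and eBayes of limma 3.58.1, R 4.3.3), with two-sided p-values adjusted over 22746 probe sets. Replicates are biological per the labels.

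Named genes are the 12 largest rises and falls among called, non-overlapping single-gene probe sets, measured clock genes and up to 6 called members of each list. Members and lists were chosen with earlier results of these data known. Of 30 lists with 562 loci 103 were measured; 4 lists (photoreceptors, cell cycle, flower, seed) had none, and lists for nitrogen and sulfur, salicylate and glucosinolates no call. In simulated day courses 76 of 100 planted changes of 1 log2 unit and 96 of 100 of 2 units were recovered, with 6 false calls. The simulation shuffled the deviations of each probe set over all 27 arrays. This removes shifts shared by arrays and evens out the spread of the groups, so recovery and false calls in the real data may differ. Same-numbered cat2-2 and GO5 arrays deviated together at each harvest (r 0.43 to 0.78), so a block within harvest was fitted. Alternatives are given in the closing section.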

Additional observations from a re-analysis of the deposited data

How the results depend on the processing

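The number of called probe sets in the cat2-2 day course, 2852, was 2733 to 2834 under quantile normalization, median centring, trend and robust variances and with dim probe sets left out. Median centring turned the majority, with 1282 higher and 1521 lower. It was 3211 with only the 6 arrays, 3672 without the 3 WT ambient arrays, and 2008 to 2381 with 1 cat2-2 array left out. It fell to 1471 over single-gene probe sets, where fewer were tested, to 1072 when at least 2-fold was asked for, and to 1896 without both arrays numbered 3, which leaves fewer samples. With the replicate number as a block 3200 were called; same-numbered 8 h and 0 h arrays of cat2-2 did not deviate together (r -0.40, -0.28 and -0.13), so the numbers do not pair them. A random replicate block within each harvest (correlation 0.16) gave 2984. That fit, the fixed block within harvest and the one without arrays numbered 3 were chosen after seeing the data. Cat2-2 minus WT stayed at 0 throughout, also with the replicate block (0), and cat2-2 minus GO5 gave 0 to 4 when 1 array was left out and 0 otherwise. Of 45 called named probe sets 38 were called whichever cat2-2 array was left out; COR27, HPR, GR, SAPX, AT1G80380, ARL and OPCL1 were each lost in at least 1 case, none reversed, and SAPX and AT1G80380 were lost under quantile normalization (adjusted p = 0.0507 and 0.0549) and with only the 6 arrays (0.0729 and 0.0868). Signals near background and 3 arrays per group limit what could be called.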
